A study of Mus musculus with 6 samples.

Results

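The lipoprotein assembly, HDL handling and sterol export genes of mouse liver, which make, reshape or take up lipoproteins or pump sterols out of cells, were followed as a set of 10: Mttp, Sort1, Abca1, Abcg1, Abcg5, Abcg8, Lcat, Pltp, Lipc and Scarb1. They are 10 of the 55357 genes in the count table, found by symbol through the GENCODE annotation of GRCm39, and all 10 were among the 14433 genes with enough counts to be tested. The members were chosen by function with the values of the esculetin against vehicle contrast already known, and Sort1 was noted at the choice as a clear fall. The members' differences between the groups are therefore given as a description, with standard errors and no p-value of their own. Counts of members past the thresholds stand beside the share of all genes and are no evidence for the members.

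The livers came from WT C57BL6/J male mice of 8 to 9 weeks. Vehicle mice received 2.5% Tween-80 and treated mice received esculetin, a coumarin derivative, by oral gavage every day for 7 days. All mice ate a control diet with 10% kcal from fat for 4 days and then a high-fat diet with 60% kcal from fat for 3 days, so both groups were on the high-fat diet and a group without it was not analysed here. Each group had 3 libraries, and per the study each library held RNA of 2 mice, so the spread between libraries is a spread between pools and not between single animals. The labels disagree on the dose, with 180 mg/kg/d in titles and protocol and 90 mg/kg/d under treatment, so no dose is attached to the esculetin group.

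Total counts ran from 27957713 to 34920922, and the esculetin libraries were the 3 deepest. Levels are given as CPM, in which counts are divided by the TMM-scaled library size, and 3 counts correspond to 0.0865 to 0.109. The lowest count of any of the 10 genes in any library was 188, for Abcg1, so all were far above this floor. Mitochondrial transcripts took 7.31 to 7.62% of counts in vehicle and 6.87 to 7.26% in esculetin libraries, and their part in the results was not tested. The 6 hepatocyte markers summed to 75537 to 79053 CPM in vehicle and 73392 to 79426 CPM in esculetin libraries, and 0 of them were called. In whole liver, fewer cells of a type and less RNA per cell cannot be told apart.

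As background, hepatocytes load triglyceride and cholesterol onto apolipoprotein B to form VLDL, and they also supply much of the apolipoprotein and enzyme that build and remodel HDL. Cholesterol leaves cells through ABC transporters, is esterified in plasma, returns to the liver through a scavenger receptor, and is finally pumped into bile. Several of the transporters are classical targets of the liver X receptors, nuclear receptors that sense oxysterols.

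Among the 10 genes, 7 had a higher and 3 a lower fitted mean with esculetin, with a median log2 fold change of 0.11 beside -0.0080 over all genes tested. A gene was called when its edgeR p-value was under 0.05 and its fold change over 1.5. Of the members 1 was called lower, Sort1, where 1.76% of all genes tested were, and 0 were called higher, where 1.37% were. At a p-value under 0.05 with any fold change, 1 member was lower (Sort1) beside 5.32% of all genes, and 2 were higher (Abcg8 and Lipc) beside 6.53%. With an adjusted p-value under 0.05 in edgeR the member count was 0, beside 0.0416% of all genes in either direction. The adjusted count turned on the tool and the setting: it was 1 member (Sort1) and 193 of all genes with DESeq2, 0 and 5 with limma-voom, 2 (Sort1 and Abcg8) and 477 in edgeR without a filter, and 1 (Sort1) and 45 without vehicle replicate 1. The members were chosen with this contrast known, so nothing is read from their counts. The 3 esculetin libraries lay wholly below the 3 vehicle libraries for 1 member (Sort1), as for 8.24% of all genes, and wholly above them for 3 (Abcg8, Lcat and Lipc), as for 9.20%. The other 6 overlapped. When libraries were scaled to total counts alone, 2 members remained without overlap, Lipc and Sort1.

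**Figure D1:**
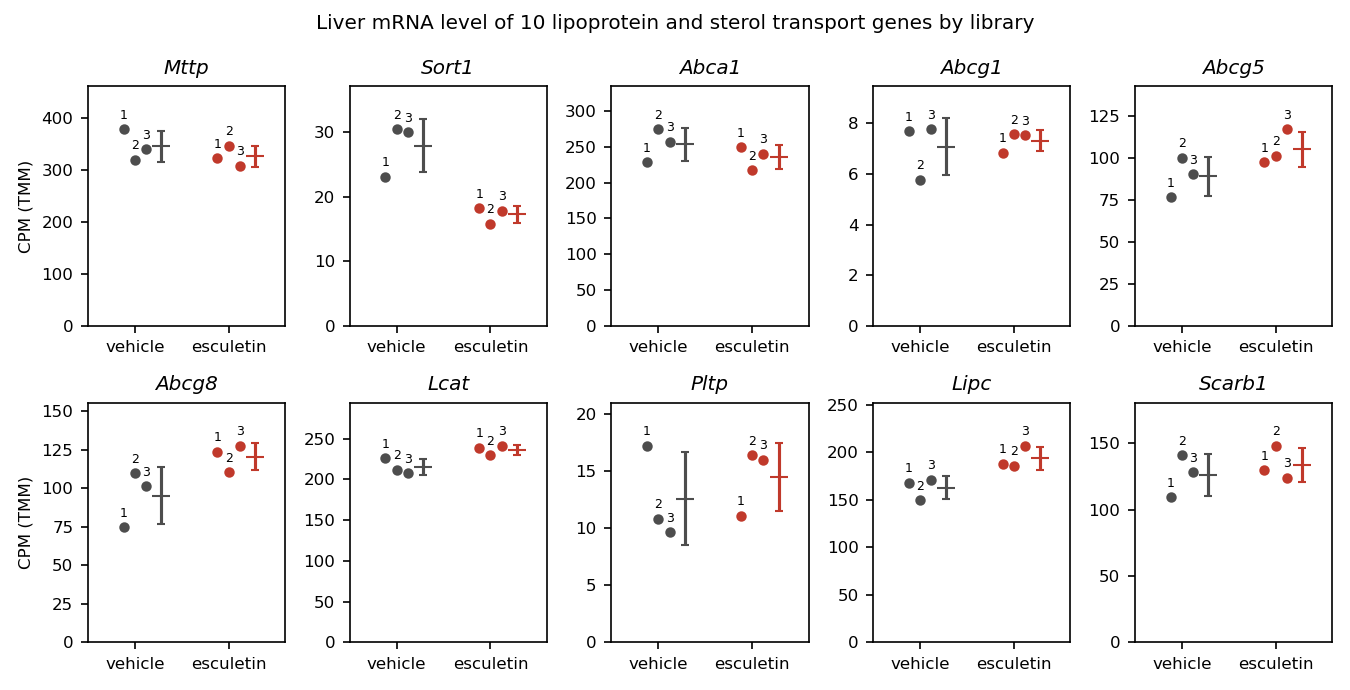
Level of each of the 10 genes in every library, as CPM on linear axes that start at 0. Points are libraries numbered by replicate, and the line with caps beside them is the mean ± SD (n = 3 libraries). The Sort1 groups are separated (23.2 to 30.5 against 15.8 to 18.3), while most other panels show groups that overlap or nearly touch.

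Mttp and Sort1 act on apolipoprotein B inside the cell. Sort1 encodes sortilin, a sorting receptor of the trans-Golgi network that binds apolipoprotein B and several lysosomal cargoes. It lies on the plus strand of chromosome 3 from 108191285 to 108268842 (GRCm39, ENSMUSG00000068747, 20 exons in the canonical transcript). Sort1 had 680, 993 and 824 counts in vehicle replicates 1 to 3 and 588, 549 and 597 in esculetin replicates 1 to 3, although the latter libraries were deeper. On the CPM scale these were 23.2, 30.5 and 30.05 with vehicle and 18.3, 15.8 and 17.8 with esculetin. The highest esculetin library was thus below the lowest vehicle library, which was vehicle replicate 1. The means were 27.9 ± 4.11 and 17.3 ± 1.31 CPM (SD, n = 3 each), and the log2 fold change was -0.69 (SE 0.12), a fold of 0.621. The difference of the means exceeded the spread in either group. It was between -0.62 and -0.81 when any 1 library was left out.

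Part of the Sort1 exons, 2211 bases or 26.9%, is also exon of the antisense lncRNA genes Gm12522 and Gm12523. Whether the counting used strand is not given in the sources used here. Gm12522 had 0 counts in 4 libraries and 2 in each of esculetin replicates 2 and 3, and Gm12523 had 0 counts in every library. Of the 6 listed neighbours of Sort1 on its chromosome, 3 had enough counts to be tested, and 0 were called. Their log2 fold changes were -0.13 (SE 0.088) for Sars1, a seryl-tRNA synthetase, 0.05 (SE 0.073) for Psma5, a proteasome subunit, and -0.21 (SE 0.45) for Atxn7l2, where Psrc1, Celsr2 and Mybphl were too low to be tested. Celsr2, which encodes an adhesion receptor of the cadherin family and is named here after its values were seen, had 14, 16 and 8 counts with vehicle and 2, 6 and 4 with esculetin. Its esculetin libraries lay below its vehicle libraries in CPM, and it was called lower when no filter on low counts was used, without vehicle replicate 3 and without any 1 of the esculetin replicates. The Atxn7l2 value turned to 0.037 without vehicle replicate 1.

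The genes whose log2 CPM followed Sort1 most closely over the 6 libraries, among 12177 with a mean of at least 1 CPM, were Itpka (Pearson's r = 0.997), Socs7 (0.993) and Metap1 (0.989). These values describe libraries that fall into the same groups. Itpka lay close to the limit of 1 CPM, at 1.02, 1.17 and 1.17 CPM with vehicle and 0.93, 0.86 and 0.90 CPM with esculetin. Socs7, for example, had 16.95, 20.6 and 20.2 CPM with vehicle and 15.4, 14.5 and 15.4 CPM with esculetin, so it shared the low vehicle replicate 1 and the lower esculetin libraries.

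Mttp encodes the large subunit of the microsomal triglyceride transfer protein, which loads lipid onto apolipoprotein B in the endoplasmic reticulum (chromosome 3, 137795612 to 137850729, minus strand, ENSMUSG00000028158, 18 exons). It had 378, 319 and 339 CPM with vehicle and 323, 346 and 308 CPM with esculetin. The groups overlapped, and the log2 fold change of -0.08 (SE 0.088) was within the spread between libraries. It was -0.015 without vehicle replicate 1 and -0.14 without vehicle replicate 2. The ratio of P4hb, which encodes the partner subunit, to Mttp on the TPM scale (counts per exon length, scaled to the same total in each library) was 6.40, 7.55 and 7.27 with vehicle and 8.32, 7.41 and 7.57 with esculetin, and also overlapped. Mttp shares 12.7% of its exon bases with Trmt10a and Gm43691 on the other strand. Trmt10a had counts equal to 1.61% of those of Mttp in vehicle and 1.71% in esculetin libraries.

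Abca1 and Abcg1 export cholesterol to HDL. Abca1 hands phospholipid and cholesterol to lipid-poor apolipoprotein A-I, the first step in forming HDL (chromosome 4, 53030787 to 53159900, minus strand, ENSMUSG00000015243, 50 exons). It had 229, 275 and 257 CPM with vehicle and 250, 217 and 241 CPM with esculetin, with a log2 fold change of -0.10 (SE 0.092) that ran from -0.17 without vehicle replicate 1 to -0.04 without vehicle replicate 2. Abcg1, which passes cholesterol to mature HDL and is prominent in macrophages, lies on chromosome 17 from 31276649 to 31336969 (plus strand, ENSMUSG00000024030, 15 exons). It had 7.69, 5.77 and 7.77 CPM with vehicle and 6.84, 7.58 and 7.52 CPM with esculetin. Its log2 fold change of 0.05 (SE 0.15) ranged from -0.08 without vehicle replicate 2 to 0.12 without vehicle replicate 3, so no direction could be assigned.

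Abcg5 and Abcg8 together encode a heterodimeric sterol pump in the canalicular membrane of hepatocytes, and both proteins are needed to move sterols into bile. The genes sit head to head on chromosome 17, Abcg5 from 84964851 to 84990494 on the minus strand (ENSMUSG00000040505, 13 exons) and Abcg8 from 84983730 to 85007765 on the plus strand (ENSMUSG00000024254, 13 exons). In this annotation the genes overlap by 6765 bases. RefSeq gives Abcg5 a start at 84990439 and Abcg8 starts at 84990549 and 84983730, of which the first is 110 bases from that of Abcg5 and the other lies inside Abcg5. The 30 bases printed here are shown because they hold a TATAAA that falls in the windows of both genes, on the minus strand. It lies 84 bases before the RefSeq Abcg5 start and 31 bases before the RefSeq Abcg8 start at 84990549. The strand is that of Abcg5, whose gene in GENCODE begins nearer to the TATAAA, at 84990494. The canonical GENCODE starts of Abcg5 and Abcg8 are 13 bases apart. The stretch is given on the plus strand of GRCm39 at chr17:84990506-84990535, with the TATAAA as its complement in capitals.
Abcg5-Abcg8: acacacggtgtgTTTATAggagtgtttgcc

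Abcg5 had 76.7, 100.1 and 90.3 CPM with vehicle and 97.6, 101 and 117 CPM with esculetin. Its log2 fold change was 0.24 (SE 0.11), and the groups overlapped, since esculetin replicate 1 was below vehicle replicate 2. Abcg8 had 74.7, 110.0 and 101 CPM with vehicle and 124, 110.5 and 128 CPM with esculetin. Here the groups did not overlap, but vehicle replicate 2 and esculetin replicate 2 nearly coincided. The Abcg8 means were 95.3 ± 18.4 and 121 ± 8.99 CPM (SD, n = 3 each), with a log2 fold change of 0.34 (SE 0.13). Without vehicle replicate 1, the lowest library for both genes, the log2 fold change of Abcg8 was 0.19 and that of Abcg5 was 0.15. The ratio of Abcg8 to Abcg5 on the TPM scale was 0.898, 1.01 and 1.03 with vehicle and 1.17, 1.01 and 1.004 with esculetin, and the groups overlapped. With the longest transcript as length, the mean ratio was 0.893 with vehicle and 0.965 with esculetin, and the groups again overlapped. The genes share 108 exon bases, 3.04% of those of Abcg5.

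Lcat, Pltp and Lipc encode proteins that remodel lipoproteins in plasma and the sinusoids. Lcat encodes lecithin-cholesterol acyltransferase, which esterifies cholesterol on HDL (chromosome 8, 106665839 to 106670046, minus strand, ENSMUSG00000035237, 6 exons). It had 226, 212 and 208 CPM with vehicle and 239, 230 and 241 CPM with esculetin. The groups did not overlap, by a gap between vehicle replicate 1 and esculetin replicate 2, and the log2 fold change was 0.14 (SE 0.073), a fold of 1.10. The 88 bases before the GENCODE gene start, at chr8:106670047-106670134 on the minus strand, are shown because Lcat was a member without overlap. Its inverted CCAAT, read as ATTGG and given in capitals, lies 80 bases before the RefSeq start.
Lcat: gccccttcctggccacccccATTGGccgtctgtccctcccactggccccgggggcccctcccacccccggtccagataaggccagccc

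Lipc encodes hepatic lipase, which hydrolyses triglyceride and phospholipid of HDL and remnant particles (chromosome 9, 70705410 to 70859508, minus strand, ENSMUSG00000032207, 9 exons). It had 168, 150 and 171 CPM with vehicle and 188, 186 and 207 CPM with esculetin. The lowest esculetin library was above the highest vehicle library, under TMM and under total counts alike. The means were 163 ± 11.7 and 194 ± 11.6 CPM (SD, n = 3 each), and the log2 fold change of 0.25 (SE 0.084) stayed between 0.19 and 0.29 when 1 library was left out. RefSeq lists starts at 70842090 and 70859503. The 100 bases before the first of these, at chr9:70842091-70842190 on the minus strand, are shown because they were the single member window with AGGTCA, the nuclear receptor half-site. Capitals mark it on the gene's strand, 88 bases before the start, and on the other strand (as TGACCT), 76 bases before the start.
Lipc: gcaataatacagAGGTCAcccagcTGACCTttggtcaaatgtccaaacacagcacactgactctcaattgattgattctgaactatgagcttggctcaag

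Pltp encodes the phospholipid transfer protein, which moves surface phospholipid from triglyceride-rich particles to HDL (chromosome 2, 164677702 to 164701743, minus strand, ENSMUSG00000017754, 16 exons). It had 17.2, 10.8 and 9.63 CPM with vehicle and 11.1, 16.4 and 16.0 CPM with esculetin. Pltp was the most variable of the 10 within a group, with the highest vehicle library 1.79 times the lowest, and the highest value of all 6 was in vehicle replicate 1. The log2 fold change of 0.21 (SE 0.22) was within this spread and ran from 0.05 to 0.50 with 1 library left out, 0.50 being the value without vehicle replicate 1. Of its exon bases 21.2% are also exon of Ctsa, a lysosomal carboxypeptidase on the other strand. Ctsa counts were 708% of those of Pltp in vehicle and 667% in esculetin libraries, and its log2 fold change was 0.12 (SE 0.076), so the Pltp values are uncertain where strand was not used.

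Scarb1 encodes SR-BI, the receptor that takes up cholesteryl ester from HDL (chromosome 5, 125353547 to 125418176, minus strand, ENSMUSG00000037936, 13 exons). It had 109, 141 and 128 CPM with vehicle and 129, 148 and 124 CPM with esculetin. The groups overlapped, and the log2 fold change of 0.08 (SE 0.11) was -0.01 without vehicle replicate 1 and 0.17 without vehicle replicate 2. The ratio of Scarb1 to Abca1 on the TPM scale, import against export, was 0.568, 0.609 and 0.592 with vehicle and 0.616, 0.810 and 0.611 with esculetin. The esculetin ratios lay above the vehicle ratios, but the highest vehicle ratio (0.609) and the lowest esculetin ratio (0.611) nearly coincided. The groups of each gene alone overlapped, and a shift between import and export was not tested. With the longest transcript as length, the ratio was 1.57, 1.680 and 1.63 with vehicle and 1.70, 2.23 and 1.684 with esculetin. Whether it was below or above 1 thus depended on the length used.

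**Figure D2:**
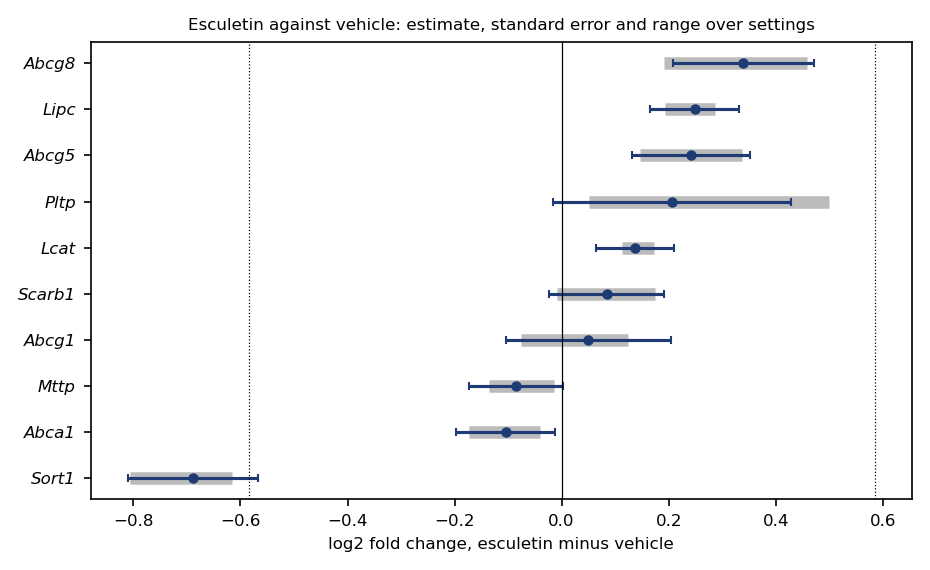
Log2 fold change, esculetin minus vehicle, for the 10 genes in order of size. Points and capped lines are the edgeR estimate ± SE, gray bars span the values under the alternative settings and with 1 library left out, and dotted lines mark a fold change of 1.5. Sort1 (-0.69) lies beyond the lower dotted line, and the other 9 lie between the dotted lines.

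The libraries of a group did not stand in 1 order for all members. Vehicle replicate 1 was the lowest vehicle library for 5 genes (Abca1, Abcg5, Abcg8, Scarb1 and Sort1), and vehicle replicate 2 was the highest for the same 5. Vehicle replicate 1 was also the highest for Lcat, Pltp and Mttp. In the esculetin group, replicate 2 was the lowest for Abca1, Abcg8, Lcat, Lipc and Sort1.

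Levels between genes were compared per exon length, as TPM. In vehicle livers Lcat was the most abundant (418 ± 30.02 TPM), followed by Lipc (231 ± 14.7), Mttp (164 ± 16.8), Abcg5 (84.4 ± 11.0), Abcg8 (83.2 ± 15.5), Abca1 (69.4 ± 6.25), Scarb1 (41.0 ± 5.08), Sort1 (11.4 ± 1.53), Pltp (7.20 ± 2.50) and Abcg1 (3.09 ± 0.47), each as SD with n = 3. Neighbours in this order whose vehicle libraries overlapped were Abcg5 with Abcg8, Abcg8 with Abca1, and Sort1 with Pltp. In esculetin livers Sort1 was at 6.97 ± 0.58 TPM and Pltp at 8.13 ± 1.80 TPM. The place of Scarb1 depended on the length used, since with the longest transcript in place of all exons it was 105 TPM and stood above Abcg5 (73.4 TPM).

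**Figure D3:**
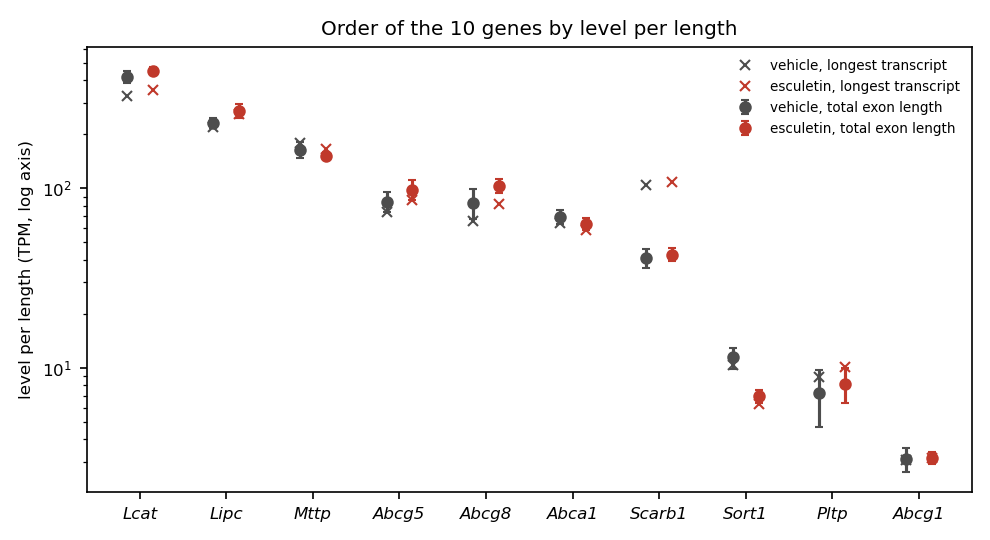
Level per length (TPM, log axis) of the 10 genes in vehicle and esculetin livers, ordered by the vehicle mean. Circles with bars are the mean ± SD (n = 3 libraries) over all exon bases, and crosses are the means with the longest transcript. Lcat is at the top (418 TPM with vehicle), Abcg1 at the bottom (3.09), and the crosses of Scarb1 lie well above its circles.

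Promoter windows of 300 bases, from 250 before to 50 after the start, were in the RefSeq table for 7 of the 10 genes, as 9 windows that each matched GRCm39 once. Abcg1, Scarb1 and Sort1 had no entry. Motifs were searched on both strands. CCAAT was in windows of Abcg5, Abcg8, Lcat, Lipc and Pltp, and in 37.4% of all 32851 windows. GGGCGG was in those of Abca1, Lipc, Mttp and Pltp (35.7% of all), TATAAA in those of Abca1, Abcg5, Abcg8 and Pltp (13.6%), and TTGCNNAA, a palindrome of the kind bound by C/EBP factors, in that of Pltp (10.8%). AGGTCA was in a window of Lipc (16.3% of all), and its direct repeats with a gap of 4 or of 1 base were in 0 member windows (0.0152% and 0.0396% of all). CACCCCAC, the core of a sterol regulatory element, was also in 0 member windows (2.87% of all). These matches are letters in a window, and binding was not measured here.

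Markers of other liver cells were summed beside the genes that such cells also express, Abca1, Abcg1 and Pltp. The 11 Kupffer cell and macrophage markers summed to 393 to 523 CPM with vehicle and 411 to 424 CPM with esculetin, 3 higher and 8 lower by fitted mean and 0 called. The 7 markers of sinusoidal endothelial cells summed to 228 to 279 and 242 to 275 CPM, 2 higher and 5 lower by fitted mean and 0 called. The 6 stellate cell markers summed to 307 to 355 and 280 to 371 CPM, 2 higher and 4 lower by fitted mean. Of these 1 was called, Des, higher, a gene with a mean of 2.39 CPM. The 5 cholangiocyte markers summed to 39.5 to 80.4 and 30.3 to 45.7 CPM, 4 higher and 1 lower by fitted mean. The 1 lower was Spp1, which was called and, with a mean of 44.7 CPM, made up most of the sum. Krt19, Krt7, Epcam and Sox9 had log2 fold changes of 0.24, 0.63, 0.06 and 0.34 and were not called. Lymphocyte markers (5, of which 4 tested) summed to 2.08 to 2.67 and 1.87 to 4.07 CPM. Of these 2 were higher and 2 lower by fitted mean, and 1, Cd79a, was called higher. The 4 erythroid markers summed to 39.0 to 64.1 and 38.2 to 103 CPM, 4 higher by fitted mean with 1 called, Hba-a2, higher. The 3 adipocyte markers summed to 0 CPM in every vehicle library and to at most 0.202 CPM with esculetin, with Lep at 0 counts in all 6 libraries, and no other list had a marker at 0 throughout. The groups overlapped in each list, and the part of other cells in the results was not tested.

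The other genes of the pathway were taken from 8 lists with 127 genes, of which 118 were tested. Over all lists 3 of the 118 were called higher (Angptl4, Cebpb and Nr0b2), where 1.37% of all genes tested were. Lower calls numbered 0, where 1.76% of all genes tested were. The same shares stand beside the calls of each list below. The median log2 fold change was 0.0072. At an unadjusted p-value under 0.05 and any fold, 14 were higher (11.9%, beside 6.53% of all genes) and 7 lower (5.93%, beside 5.32%). The lists were chosen with earlier results of these data known, so nothing is read from the counts of list genes. After adjustment, 0 list genes stayed under 0.05 in edgeR and limma-voom, against 7 in DESeq2, all higher (Angptl4, Apoa2, Apoc1, Apoc3, Cebpb, Foxo1 and Nr0b2). The values below are log2 fold changes with edgeR's quasi-likelihood test and Benjamini-Hochberg adjustment over all 14433 genes.

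Of the 16 genes of VLDL assembly and secretion, which act with Mttp, 0 were called (median 0.06). A higher fitted mean was seen for 10 of them, as for 6993 of the 14433 genes tested. Fitm2, an endoplasmic reticulum protein of lipid droplet formation, had the smallest p-value of this list and a log2 fold change of 0.32. Sar1a and Sar1b, GTPases of the vesicles that carry VLDL from the endoplasmic reticulum, were at 0.13 and 0.14, and Tm6sf2, which acts in VLDL lipidation, at 0.19, a value that was 0.013 without vehicle replicate 3 and 0.35 without vehicle replicate 1. Of the 14 tested sortilin relatives and trans-Golgi sorting genes, 0 were called (median 0.10), and Sorcs1, Sorcs2 and Sorcs3 were too low to be tested. Grn, which encodes progranulin, a ligand of sortilin, was at 0.27 (SE 0.081, adjusted p = 0.252). Igf2r, a sorting receptor for lysosomal enzymes, was at -0.19 and Psap, the precursor of saposins, at 0.16. Trib1, a pseudokinase tied to plasma lipids, was at 0.24. None of these genes passed the fold change of 1.5 that Sort1 passed.

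Of the 12 HDL particle genes, 0 were called and the median was 0.12. A higher fitted mean was seen for 10 of them, as for 6993 of the 14433 genes tested. Apoa2, the second apolipoprotein of HDL, was at 0.37, Apoc1 at 0.32, Apoe at 0.19 and Pon1, the paraoxonase carried on HDL, at 0.23. Their adjusted p-values in edgeR were 0.136, 0.203, 0.380 and 0.421. Apoa1, which encodes apolipoprotein A-I and is named here after its values were seen, was at 0.01 (SE 0.095). The 2 lower genes, also named after their values were seen, were Pdzk1 at -0.16 (SE 0.087) and Lipg at -0.10 (SE 0.21). The esculetin libraries of Pdzk1 lay below its vehicle libraries. Apoc1, which encodes a small apolipoprotein of HDL and VLDL, had 2270, 2105 and 2041 CPM with vehicle and 2522, 2790 and 2692 CPM with esculetin. Among 12 genes of lipase control, which act beside Lipc, Angptl4 rose and was the single call. Angptl4 encodes a secreted inhibitor of lipoprotein lipase. It had 60.0, 62.5 and 71.1 CPM with vehicle and 117, 96.7 and 158 CPM with esculetin, with a log2 fold change of 0.94 (SE 0.16, adjusted p = 0.114 in edgeR and 1.9e-06 in DESeq2). Apoc3, another inhibitor of triglyceride clearance, was at 0.36, and Apoa5, an activator, at 0.31. Lpl, the lipase itself, was at -0.50 (SE 0.15, adjusted p = 0.246) and passed the fold change of 1.5 without esculetin replicate 3 (-0.64).

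Of the 27 tested genes of biliary and intracellular sterol handling, 0 were called, and the median was -0.12 with 19 lower by fitted mean. By comparison, 7440 of the 14433 genes tested were lower by fitted mean. At an unadjusted p-value under 0.05, 5 of the 27 were lower (5.32% of all genes) and 1 higher (6.53% of all genes), while Npc1l1 and Abcg4 were too low to be tested. Abca7, a phospholipid transporter related to Abca1, had 4.90, 4.27 and 4.74 CPM with vehicle and 3.17, 3.06 and 3.05 CPM with esculetin. Its log2 fold change of -0.58 (SE 0.16, adjusted p = 0.227) was just under the fold limit. Soat1, which esterifies cholesterol inside cells, was at -0.38, Abca2 at -0.26 and Stard5, a sterol carrier, at 0.20. Of 13 tested uptake receptor genes, 0 were called (median -0.09), with Olr1 too low to be tested. Vldlr, the VLDL receptor, was at 0.92 with a wide error (SE 0.46, adjusted p = 0.472), and Mylip, a ligase that degrades the LDL receptor, was at 0.30.

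Of 21 regulators of the members, Nr0b2 and Cebpb rose and 0 were called lower, with a median of -0.0038. Nr0b2 encodes SHP, a nuclear receptor corepressor of bile acid synthesis. It had 15.3, 21.2 and 11.8 CPM with vehicle and 33.1, 32.0 and 28.4 CPM with esculetin, with a log2 fold change of 0.95 (SE 0.18, adjusted p = 0.132 in edgeR and 7.1e-05 in DESeq2). Cebpb, which encodes the transcription factor C/EBP beta, had 24.9, 35.6 and 30.2 CPM with vehicle and 53.7, 43.4 and 40.3 CPM with esculetin, with a log2 fold change of 0.60 (SE 0.14, adjusted p = 0.175 in edgeR and 0.0107 in DESeq2). It was not called without vehicle replicate 1 or without esculetin replicate 1, where the log2 fold change was 0.47, nor under total counts (0.57). Foxo1, a transcription factor that insulin restrains and that acts on Mttp, was at 0.52 (SE 0.11, adjusted p = 0.136 in edgeR and 0.0044 in DESeq2), and Ppargc1b, a coactivator, was at 0.43.

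**Figure D4:**
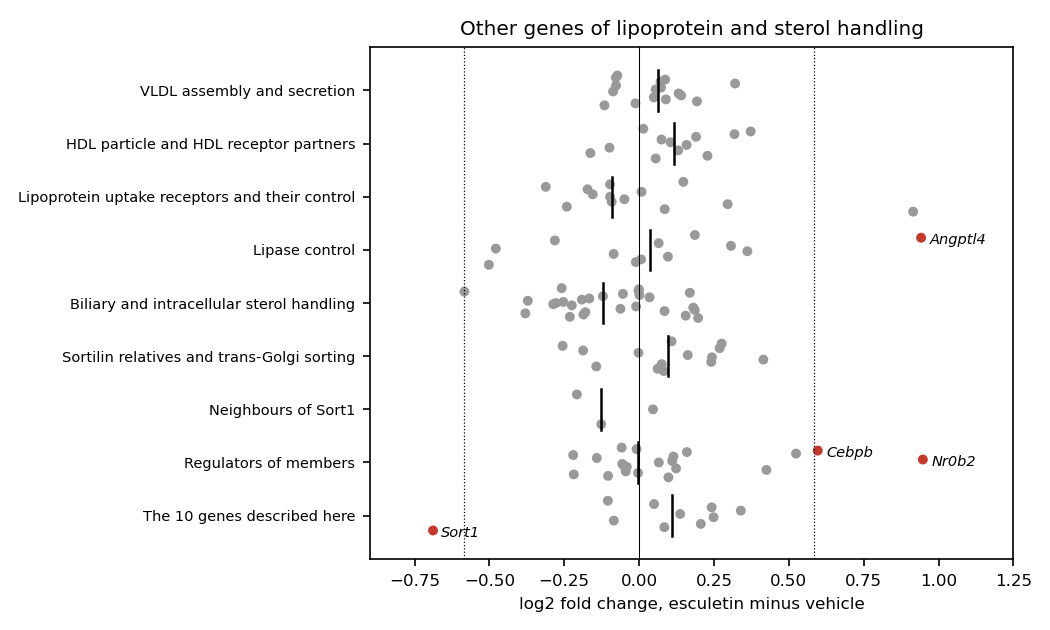
Log2 fold change, esculetin minus vehicle, of the tested genes of 8 lists and of the 10 genes described here. Each point is a gene, black bars are medians, dotted lines mark a fold change of 1.5, and red points were called. Angptl4, Cebpb and Nr0b2 are the called list genes, all higher, and Sort1 is the called member, lower.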

How the data were processed

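RNA of livers was purified with Trizol and sequenced as 150-bp paired-end reads from libraries of a NEBNext Ultra kit. The authors mapped reads to GRCm39 with HISAT2 2.2.1 and deposited whole-number counts per gene from featureCounts, without normalization. The labels also list mm10. The annotation release, the use of strand and the handling of reads in overlapping genes are not given in the sources used here. Libraries were grouped by their labels, and the table's columns were matched to them by name.

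Here, 54749 of 55357 gene identifiers matched GENCODE. Genes were kept with edgeR's filterByExpr, scaled by TMM, and tested over the whole table with edgeR 4.0.16 (quasi-likelihood, R 4.3.3), with a biological coefficient of variation of 14.6%. The SE was obtained from the fold change and the F statistic. A call needed an unadjusted p under 0.05 and a fold change over 1.5, after the study's limma thresholds. P-values measure the spread between libraries, each a pool. Replicates of a group differed by at least 24.2 in chi-square per gene, so none was a copy. TPM used all exon bases of a gene. The test was also run on simulated counts drawn with the gene variability estimated from these same libraries. The outcome is not reported here and carries no weight for the results. Intervals of 3 counts cover counting error only. Promoters were RefSeq's (from a GRCm38.p6 table), matched to GRCm39 by sequence.

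Members and lists were chosen with earlier results of these data known. List genes named were those called, filled up with the smallest p-values to 4 per list. Some genes that this rule names are not reported here. Alternatives were DESeq2 1.42.0, limma-voom (limma 3.58.1), other size factors, total counts, other filters, thinning, each library left out, a replicate block and other thresholds. Same-numbered libraries did not deviate together (correlations -0.0689, -0.0108 and 0.0027).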

Additional observations from a re-analysis of the deposited data

How the results depend on the processing

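Of all genes tested, 452 were called, and 776 without a filter on low counts, 6 with an adjusted p under 0.05 in edgeR and 1711 with an unadjusted p under 0.05 at any fold. For the members these thresholds gave 0 and 3 in place of 1. The pathway lists gave 3 calls, 5 without a filter (with Celsr2, lower, and Vldlr, higher, added), 0 with an adjusted p in edgeR, 21 with an unadjusted p at any fold, and 3 to 5 with 1 library left out. The value of 5 came without vehicle replicate 3, esculetin replicate 1 or esculetin replicate 3, and Celsr2 was called lower each time. The adjusted counts turned on the setting. For all genes, members and list genes they were 193, 1 and 7 with DESeq2, 5, 0 and 0 with limma-voom, 477, 2 and 9 in edgeR without a filter, and 15, 0 and 1 (Angptl4, adjusted p = 0.0481) with the replicate block, and with 1 library left out they were 2 to 45, 0 to 1 and 0 (45 and 1 without vehicle replicate 1). With the replicate number as a replicate block, 399 genes, 1 member and 3 list genes were called. Members without overlap numbered 4, and 2 under total counts.

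With the longest transcript as length, vehicle TPM was 73.4 for Abcg5, 65.8 for Abcg8, 105 for Scarb1 and 327 for Lcat, and the ratio of Abcg8 to Abcg5 was 0.893 with vehicle and 0.965 with esculetin. With 1 library left out, Atxn7l2 ran from -0.57 to 0.037, Vldlr from 0.60 to 1.64, Sars1 from -0.22 to -0.062 and Psma5 from 0.021 to 0.075. Vldlr was called with DESeq2 (0.92), limma-voom (1.04), no filter, and without vehicle or esculetin replicate 1. Abca7 was called under total counts (-0.61), with at least 10 counts in every library, and without vehicle replicate 2 or esculetin replicate 1. Foxo1 was called without vehicle replicate 3 (0.65). The causes were not tested. The log2 fold change of Sort1, which was chosen with this contrast known, ran from -0.81 to -0.62 over 15 fits.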
